A study of Mus musculus with 2 samples.

Results

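Gpnmb and Spp1 are 2 of the 31053 genes counted in each library, matched by their symbols in the gene tables. Gpnmb encodes glycoprotein nonmetastatic melanoma protein B, a membrane glycoprotein of lysosomes and the cell surface whose outer part can be shed. Spp1 encodes osteopontin, a secreted phosphoprotein that binds integrins and CD44. Both were selected on their UMI counts in these libraries (unique molecular identifiers, each marking 1 captured transcript), so their own levels are a description and carry no test.

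The study sorted CD45+CD11b+CD3-F4/80+ cells from the ischemic brain of Foxp3Egfp mice, a strain with a green fluorescent reporter at Foxp3, aged 6 to 8 weeks. Both libraries hold the same kind of sample, called replicate 1 and replicate 2, and there is no comparison with uninjured brain. The stroke model and time after stroke are not given in the sources used here. The labels say that barcoded transcripts of stroke mice were pooled but not how many animals stand behind a library, so the spread between libraries may be technical. A barcode was taken as a cell if it held 1000 or more UMIs and 500 or more genes, with mitochondrial UMIs at 10% or below.

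Replicate 1 held 15050 such cells and replicate 2 held 7910, with median depths of 5356 and 5892 UMIs. After removal of likely doublets 13624 and 7409 cells were left, and 31 cell barcodes occurred in both libraries. The libraries stood apart in composition: the monocyte-derived macrophage-like class held 3348 cells in replicate 1 and 173 in replicate 2, so values of that class rest mostly on replicate 1. Classes named for cells outside the F4/80+ CD3- gate were also present. They were T or NK cell-like cells (133 and 97), neutrophil-like cells (699 and 568) and mural cell or fibroblast-like cells (219 and 100). In the last class Ptprc, which encodes CD45, stood at 17.4 and 9.50 CPM (UMIs of a gene scaled to a total of 1000000 UMIs per class and library), against 122 and 170 in the macrophage-like class. The neutrophil-like class carried 10875 and 9265 CPM of 11 microglia markers, none at 0, beside 32948 and 84709 of its own 9 markers. Its Adgre1, which encodes F4/80, stood at 122 and 84.2 CPM, against 139 and 125 in microglia-like cells. The part of microglia RNA in this class was not tested.

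In phagocytes of injured tissue both genes are known as part of a lysosomal and lipid-handling state. Gpnmb is a classical target of the MiT/TFE transcription factors, which turn on lysosomal genes when the lysosome is under load. Osteopontin is made by activated macrophages, by microglia of the developing and injured white matter, and by fibroblasts and bone cells. It is cleaved by thrombin and matrix metalloproteinases and crosslinked by transglutaminase 2, and integrins and CD44 serve as its receptors.

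On the GRCm38 build with GENCODE annotation, Gpnmb (ENSMUSG00000029816) lies on the plus strand of chr6:49036546-49070929 and Spp1 (ENSMUSG00000029304) on the plus strand of chr5:104435118-104441050. The 250 bases before each RefSeq start (GRCm38.p6) are shown because both genes were high in the same classes. They cover chr6:49036268-49036517 and chr5:104434861-104435110, both plus strand, and capitals mark matches to 2 of the motifs searched.
Gpnmb: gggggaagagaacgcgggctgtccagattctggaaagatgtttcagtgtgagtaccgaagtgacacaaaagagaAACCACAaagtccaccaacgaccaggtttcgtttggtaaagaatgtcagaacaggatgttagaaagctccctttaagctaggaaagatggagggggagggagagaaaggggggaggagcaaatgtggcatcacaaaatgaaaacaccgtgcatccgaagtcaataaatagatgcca
Spp1: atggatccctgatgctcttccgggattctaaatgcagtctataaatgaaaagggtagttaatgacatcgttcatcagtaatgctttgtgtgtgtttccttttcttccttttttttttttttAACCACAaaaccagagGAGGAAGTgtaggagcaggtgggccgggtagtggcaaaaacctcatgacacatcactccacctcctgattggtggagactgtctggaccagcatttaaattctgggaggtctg

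The motifs were chosen after the sequences had been read and were searched on both strands. AACCACA, a core bound by RUNX factors, occurred once in each window, 176 to 170 bases before the Gpnmb start and 129 to 123 bases before the Spp1 start. Of 32851 promoter windows of that length, 4.40% held it. GAGGAAGT, a core bound by ETS factors such as PU.1, occurred 113 to 106 bases before the Spp1 start and was in 2.44% of all windows. The AP-1 motif TGACTCA (4.46% of windows) and the E-boxes CACGTG (6.02%) and CATGTG (12.3%), which MiT/TFE factors can bind, were not among the letters of either window. A match describes the sequence and is not a measured binding site.

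Gpnmb was highest in the macrophage-like class. This class was a single cluster, found without the pair or the listed genes, whose leading genes included Ms4a7 and Lyz2. Its level was 3585 CPM in replicate 1 and 1708 in replicate 2, a mean of 2646 ± 1327 (SD, n = 2). Monocyte-like cells followed at 1336 and 458 CPM. The macrophage-like and monocyte-like ranges over the libraries did not overlap. The monocyte-like class joined cluster 4, whose leading genes included Arg1, Hmox1, Chil3, Plac8, Ly6c2 and Pf4, and cluster 13, led by Ear2 and Ace. Cluster 4 stood at 1381 and 490 CPM of Gpnmb and cluster 13 at 62.6 and 15.8. In the class, 10 macrophage markers summed to 20074 and 23326 CPM and 8 monocyte markers to 1911 and 5707.

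In each library Gpnmb was lower in the other named classes. Microglia-like cells stood at 101 and 11.9 CPM, so macrophage-like cells held 35.4 times as much in replicate 1 and 143 times as much in replicate 2. Neutrophil-like (194 and 7.80), mural cell or fibroblast-like (170 and 3.70) and T or NK cell-like cells (153 and 9.20) had ranges that overlapped with that of microglia-like cells. Cycling cells, a mixture of classes in division, stood at 923 and 77.5 CPM, which overlapped with the range of monocyte-like cells. Cells of unnamed clusters stood at 420 and 48.7 CPM. Among them was cluster 11 (240 and 16 cells), whose leading genes included Mrc1 and Marco, at 602 and 204 CPM of Gpnmb.

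Spp1 was also highest in the macrophage-like class, at 15292 CPM in replicate 1 and 7643 in replicate 2, a mean of 11467 ± 5409 (SD, n = 2). In replicate 2, 1 cell of 40127 UMIs held 3523 Spp1 UMIs, or 25.5% of the class's total, and without it the level was 5826 CPM. Monocyte-like cells reached 9555 and 5384 CPM, a range that overlapped with that of the macrophage-like class. In each library the macrophage-like value was the higher one, 1.60 and 1.42 times the monocyte-like value. Within the monocyte-like class, cluster 4 stood at 9882 and 5726 CPM of Spp1 and cluster 13 at 293 and 529.

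Below them the order of Spp1 differed from that of Gpnmb. Mural cell or fibroblast-like cells held 3981 and 3824 CPM, the closest in proportion of any class for Spp1. Cycling cells held 7779 and 1052 CPM, and cells of unnamed clusters 3497 and 1576. The unnamed cluster 11 alone held 5507 and 9463 CPM, above the macrophage-like value in replicate 2. There it had 16 cells, and 1 of them held 68.4% of its Spp1 UMIs. Microglia-like cells held 2220 and 505, neutrophil-like cells 1496 and 425, and T or NK cell-like cells 380 and 251 CPM. The microglia-like and neutrophil-like ranges overlapped.

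**Figure D1:**
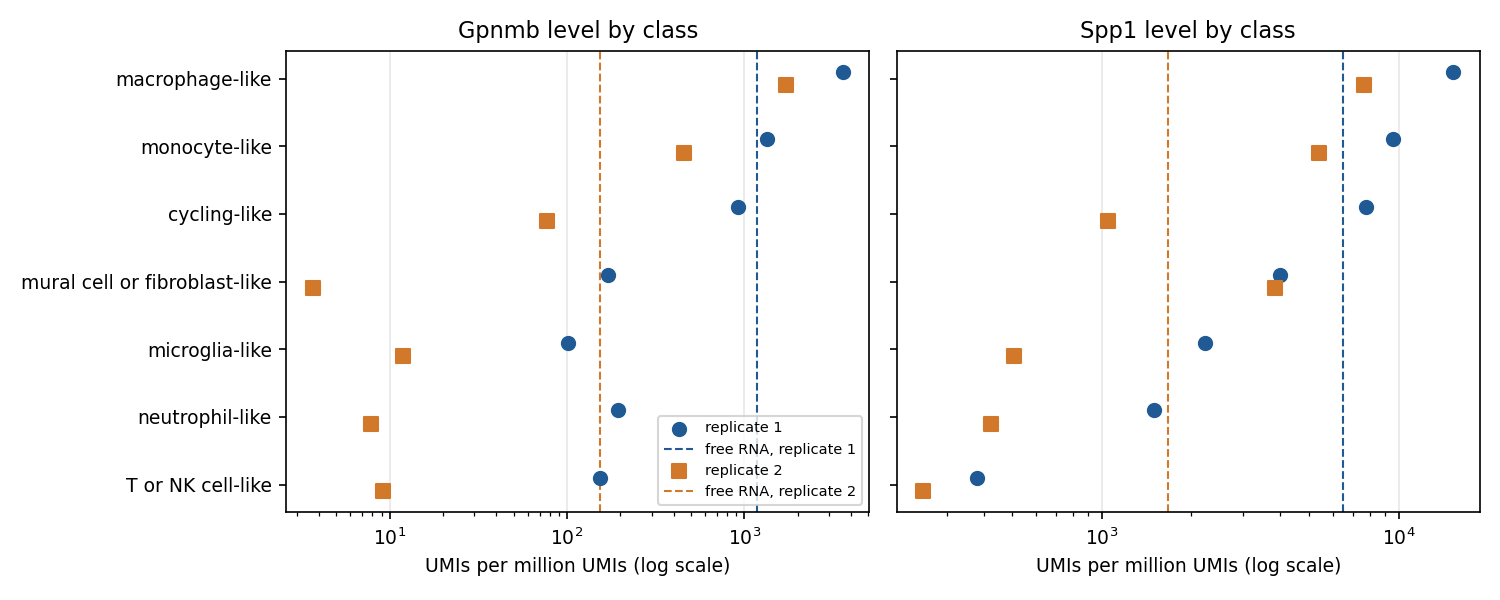
Summed UMIs of Gpnmb (left) and Spp1 (right) in CPM for each class, on a log axis, with 1 point per library; dashed lines give the level in barcodes under 100 UMIs, which hold free RNA. Macrophage-like cells lie to the right of their library's dashed line for both genes, and T or NK cell-like cells lie to the left of it.

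Free RNA was rich in both transcripts. In barcodes under 100 UMIs, Gpnmb stood at 1172 CPM in replicate 1 and 153 in replicate 2, and Spp1 at 6504 and 1677. The macrophage-like class held 306% and 1120% of the free level of Gpnmb, and 235% and 456% of that of Spp1. Microglia-like cells held 8.63% and 7.81% of the free level of Gpnmb, and T or NK cell-like cells 13% and 6.03%. Summed over the class, microglia-like Gpnmb was thus near the level of T or NK cell-like cells, which rested on 63 and 4 Gpnmb UMIs. The part of free RNA in the microglia-like level was not tested. Cluster 2 within the class stood at 12.5% and 20.3% of the free level of Gpnmb, below and above the T or NK cell-like value of its library.

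Microglia-like cells held 34.1% and 30.1% of the free level of Spp1, against 5.85% and 14.9% in T or NK cell-like cells. Mural cell or fibroblast-like cells held 61.2% and 228%, below the free level in replicate 1 and above it in replicate 2. The T or NK cell-like class is an imperfect measure of background, since osteopontin is also known from activated T and NK cells. In replicate 2, 1 of its cells held 98 of its 109 Spp1 UMIs. The class also carried 7639 and 4471 CPM of the 11 microglia markers, beside 3742 and 7257 CPM of its own 10 markers, with none of either list at 0, and their part in its Spp1 level was not tested.

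The ratio of Spp1 to Gpnmb counts also differed between classes. Free RNA held 5.55 Spp1 UMIs per Gpnmb UMI in replicate 1 and 11.0 in replicate 2. The macrophage-like ratio was 4.27 and 4.47, whereas the microglia-like ratio was 21.9 and 42.4. Mural cell or fibroblast-like cells had 23.5 Spp1 UMIs per Gpnmb UMI in replicate 1 and 1035 in replicate 2.

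**Figure D2:**
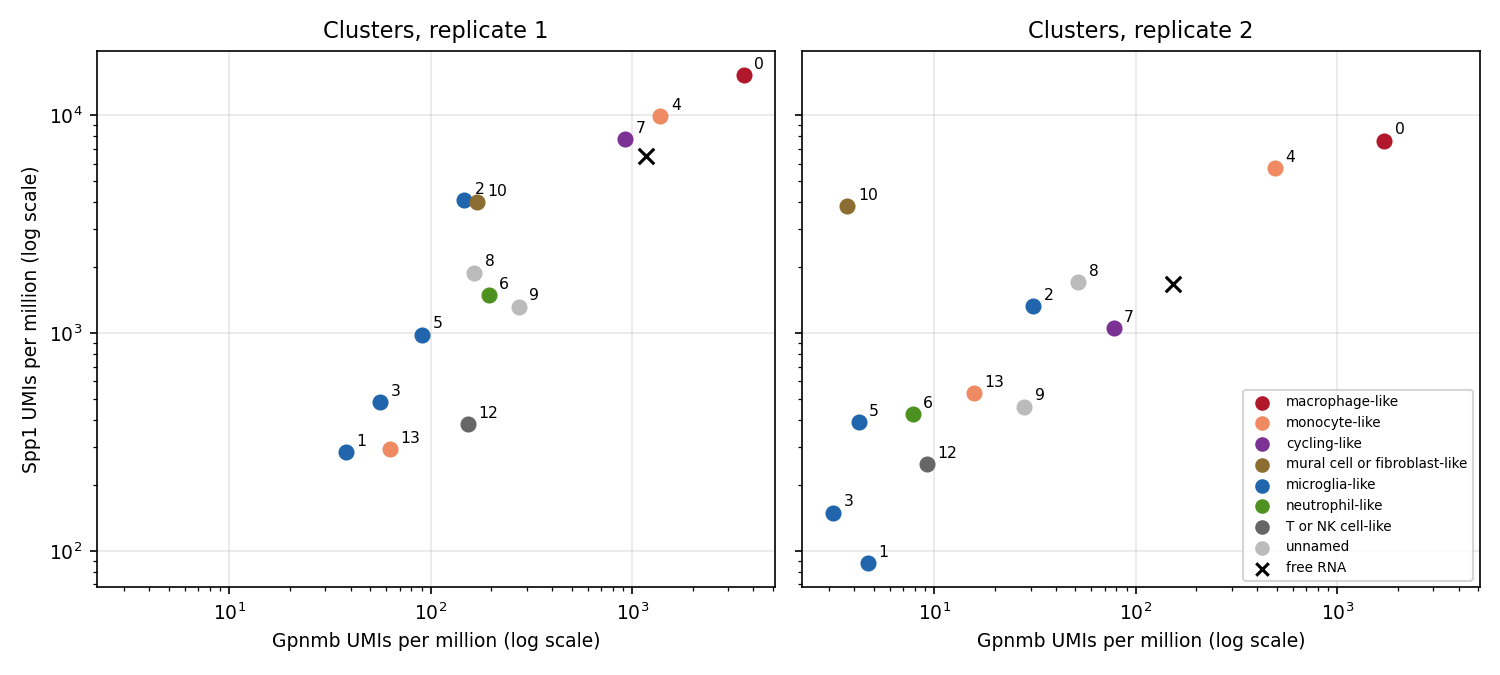
Gpnmb (x) against Spp1 (y), in CPM on log axes, for the 13 clusters with at least 50 cells in each library; numbers name clusters, colours give classes and the cross gives free RNA. Clusters 0 and 4 lie at the upper right in both panels, and cluster 10 combines a high Spp1 level with a low Gpnmb level in replicate 2.

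Most counts of the pair came from few clusters. The macrophage-like class held 79.3% of the Gpnmb UMIs and 63.3% of the Spp1 UMIs of all cells in replicate 1, and 44.1% and 16.5% in replicate 2. Monocyte-like cells held 10.5% and 14.0% in replicate 1, and 44.0% and 43.2% in replicate 2. In replicate 2, microglia-like cells held 18.9% of the Spp1 UMIs and mural cell or fibroblast-like cells 8.62%. Both the number of cells of a class and its level enter these shares.

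Detection was compared after each cell had been thinned to 1000 UMIs, since deeper cells show more genes. All intervals cover counting error only. Gpnmb was then detected in 83.9% of macrophage-like cells of replicate 1 (exact 95% interval 82.6 to 85.1%) and 60.7% of those of replicate 2 (53.0 to 68.0%). Unthinned, these shares were 96.4% and 84.4%. In microglia-like cells the thinned share was 6.08% and 0.460%, against 4.51% and 0% in T or NK cell-like cells, where a count of 0 among 97 cells allows up to 3.09% (a limit of 3 counts).

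Spp1 was detected in 89.5% of thinned macrophage-like cells in replicate 1 and 71.1% in replicate 2. In microglia-like cells it was detected in 27.9% (26.8 to 29.1%) and 6.66% (5.96 to 7.40%), with 50.3% and 17.8% before thinning. T or NK cell-like cells gave 18.8% (12.5 to 26.5%) and 4.12% (1.13 to 10.2%), with median depths of 1837 and 3347 UMIs against 3602 and 5161.

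The mural cell or fibroblast-like class separated the pair. Spp1 was detected in 64.4% and 78.0% of its thinned cells, and in 90.0% and 98.0% of its cells before thinning. Gpnmb was detected in 3.65% of its thinned cells in replicate 1 and in none of 100 in replicate 2, which allows up to 3% (a limit of 3 counts). The class carried its own markers, with collagens, Dcn, Pdgfrb and Rgs5 summing to 12002 and 14992 CPM. It also carried 3589 and 3964 CPM of 11 microglia markers, none of them at 0, and 8442 and 9194 of 10 macrophage markers, with F10 at 0 in replicate 2. Their part in the Spp1 level was not tested.

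**Figure D3:**
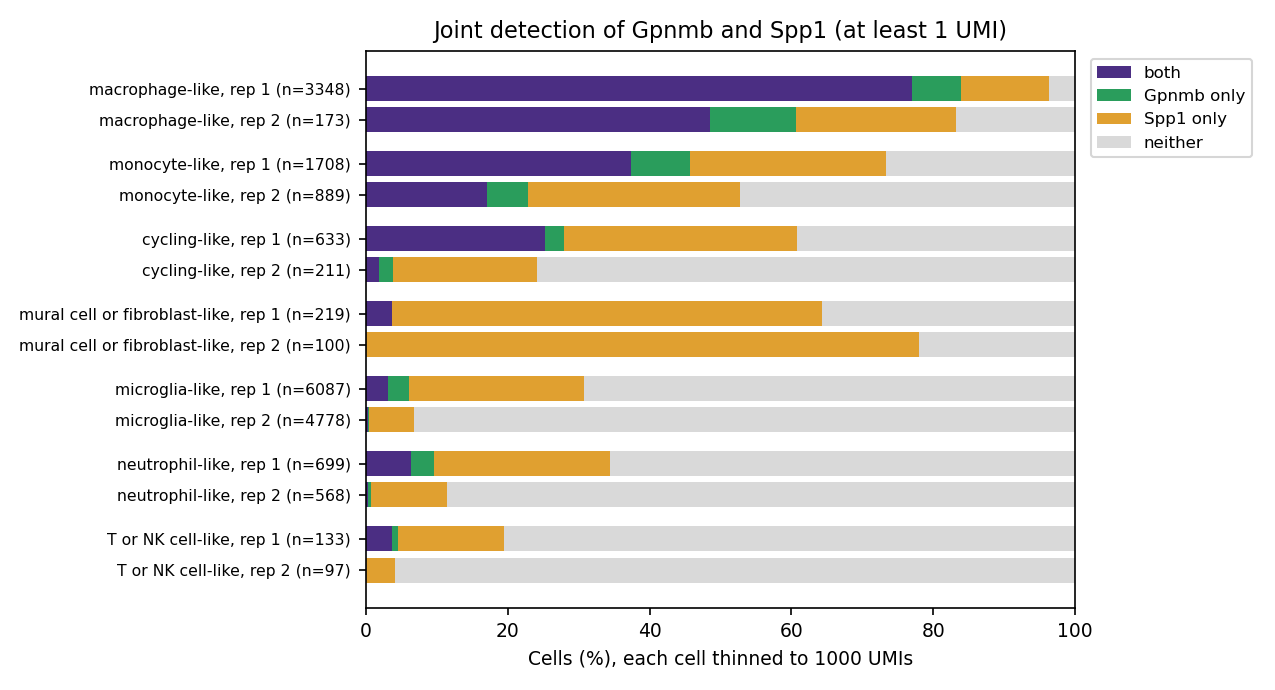
Shares of cells of each class and library in which both genes, 1 of them or neither was detected after thinning to 1000 UMIs; n gives the cells per bar. Cells with both genes are the largest share of the macrophage-like bars (77.0% and 48.6%), and cells with Spp1 only are the largest share of the mural cell or fibroblast-like bars.

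Within single macrophage-like cells the pair was found together somewhat more often than independent detection of each gene would give. That expectation was 2514 cells with both in replicate 1 and 74.7 in replicate 2. In replicate 1, 2578 cells had both, 231 had Gpnmb only, 418 had Spp1 only and 121 had neither, an odds ratio of 3.23. In replicate 2 the counts were 84, 21, 39 and 29, an odds ratio of 2.97. Spp1 was thus detected in 91.8% and 80.0% of macrophage-like cells with Gpnmb, against 77.6% and 57.4% of those without it.

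Monocyte-like cells gave odds ratios of 4.32 and 4.71, from 638 and 152 cells with both. In microglia-like cells only 194 cells of replicate 1 and 12 of replicate 2 had both, with odds ratios of 3.08 and 17.5. Cells share their library and its free RNA, so these ratios describe the libraries and carry no test.

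The Spp1 UMIs of microglia-like cells sat in few cells. Cells with at least 10 Spp1 UMIs of 1000 numbered 194 (3.19%, exact 95% interval 2.76 to 3.66%) in replicate 1 and 26 (0.544%, 0.356 to 0.796%) in replicate 2. They held 68.4% and 54.4% of the class's Spp1 UMIs. No microglia-like cell reached 10 Gpnmb UMIs of 1000 in either library. In the macrophage-like class 42.1% and 17.9% of cells reached that number for Spp1, and 3.14% and 1.16% for Gpnmb.

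Of the microglia-like cells with at least 10 Spp1 UMIs, 88.1% in replicate 1 and 65.4% in replicate 2 lay in cluster 2, whose leading genes included Cst7, Ch25h and Cd72. Cluster 2 stood at 4075 and 1325 CPM of Spp1. Cluster 1, whose leading genes included Hspa1b, P2ry12 and Hspa1a, stood at 284 and 87.8, and cluster 3, led by Il1a and Egr1, at 483 and 150. Cluster 2 cells were deeper, with medians of 5593 and 9783 UMIs against 1638 and 3834 in cluster 1.

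Macrophage markers were higher in the microglia-like cells with at least 10 Spp1 UMIs than in the others. The 10 markers summed to 5265 and 3522 CPM against 2172 and 1241, with F10 at 0 in both libraries and S100a6 at 0 in replicate 2 among the cells rich in Spp1. Ms4a7 stood at 211 and 38.7 CPM against 45.3 and 10.4. The 11 microglia markers summed to 8955 and 13077 against 13730 and 19496, and P2ry12 stood at 147 and 293 against 690 and 1295. Gpnmb reached 478 and 199 CPM in these cells against 78.3 and 9.74 in the others. Median depths were 7770 and 12576 UMIs against 3493 and 5135, and the part of markers and depth in the Spp1 counts was not tested.

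**Figure D4:**
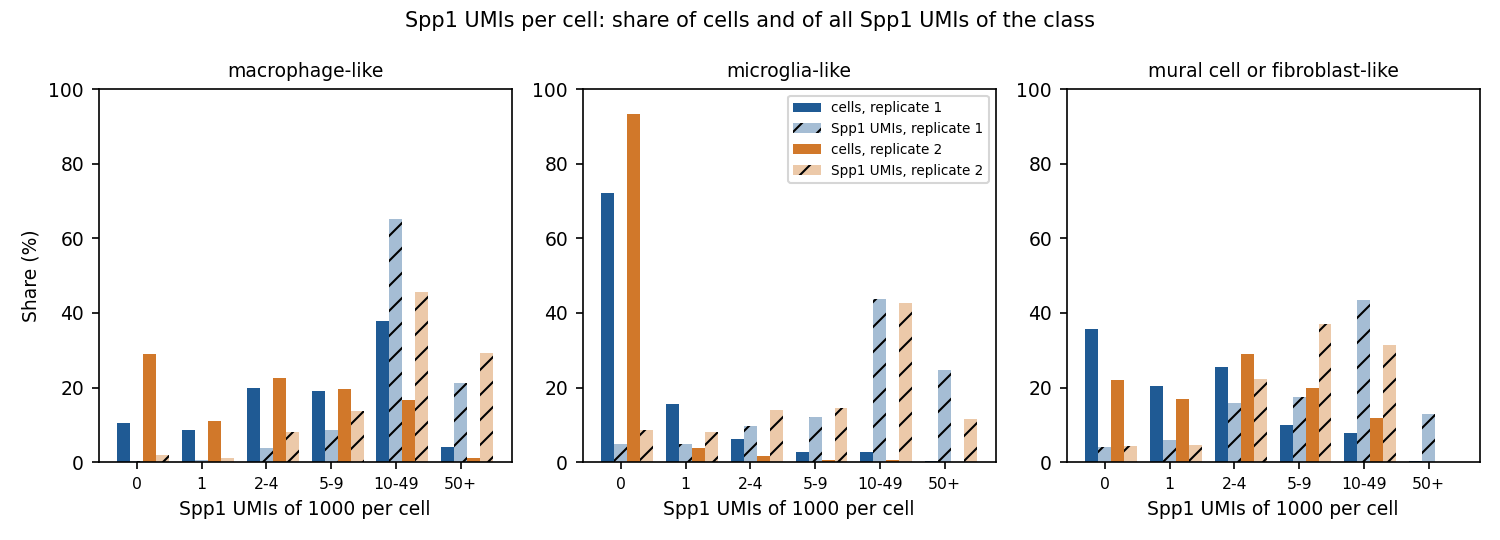
Share of cells (solid bars) and share of the class's Spp1 UMIs (hatched bars) by the number of Spp1 UMIs per cell after thinning to 1000 UMIs, for 3 classes and both libraries. In microglia-like cells the tallest solid bars are at 0 UMIs, whereas the tallest hatched bars are at 10 to 49 UMIs.

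The genes most like each member across the 13 clusters were ranked by the lower of the libraries' Pearson correlations of log2(CPM + 10), over 4431 genes. The clusters share libraries and cells, so the values are a description. Nearest to Gpnmb were Ms4a7 (0.95 in replicate 1 and 0.91 in replicate 2), Tmem106a, Mpp1, Ethe1, Rap2b, Lipa, Plin2 and Cd93 (0.92 and 0.87). Ms4a7 and Cd93 were among the variable genes used for clustering, so the clusters were partly drawn from them. Lipa encodes lysosomal acid lipase and Plin2 a coat protein of lipid droplets.

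Nearest to Spp1 were Fabp5 (0.96 in both libraries), Aprt, Vat1, Fam20c (0.89 and 0.91), Txndc17, Tmem205, Anxa5 and Cenpb (0.86 and 0.92). Of these, Aprt was used for clustering. Fabp5 encodes a fatty acid binding protein, and Fam20c the secretory kinase that phosphorylates osteopontin. The pair correlated with each other at 0.88 and 0.76, which ranked Spp1 36th for Gpnmb and Gpnmb 50th for Spp1.

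Other genes of the pair's biology were compared between macrophage-like and microglia-like cells on summed counts per class and library, with edgeR's quasi-likelihood test and Benjamini-Hochberg adjustment. The fit held 14 sums, from every named class in both libraries, with 6 residual degrees of freedom. Its estimate of spread is therefore shared with the other classes. Of 11232 genes tested, 2033 (18.1%) were higher and 1848 (16.5%) lower at an adjusted p under 0.05, with a median log2 fold change of 0.00. The classes were drawn from the same cells' expression, so these calls describe how the classes differ and are no independent test. Beside the genes, the 10 macrophage markers summed to 36364 and 30075 CPM in macrophage-like cells. Here and below, CPM are scaled to total UMIs alone, whereas edgeR's log2 fold changes also carry its TMM scaling between sums. A small log2 fold change can therefore differ in size or sign from the CPM beside it.

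Among the 10 genes for osteopontin and GPNMB receptors, 4 were higher in macrophage-like cells, 3 were lower and 3 did not pass, with a list median log2 fold change of 0.83. Cd44, the hyaluronan and osteopontin receptor, stood at 85.8 and 53.6 CPM against 12.4 and 5.05, which gave a difference of 3.50 ± 0.53 on the log2 scale (SE; adjusted p = 0.000134 by edgeR). Itga4, the alpha 4 integrin, stood at 24.9 and 41.4 against 4.23 and 2.29 (3.69 ± 0.42). Itgav (1.24 ± 0.25) and Itga5 (1.38 ± 0.25), alpha chains that bind the RGD sequence of matrix proteins, were higher as well.

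Itgb5, the beta chain that pairs with the alpha v integrin, was lower at 272 and 294 CPM against 526 and 626 (log2 fold change -0.59 ± 0.21). Sdc4, a heparan sulfate proteoglycan, was lower as well (-0.96 ± 0.29), but the sign turned when the monocyte-like cluster 4 was counted with the macrophage-like cells (0.087) and at a clustering resolution of 1.2 (0.040). Itgb3 was called lower at -2.87 ± 0.76, yet its values were 0.398 and 12.2 CPM against 19.4 and 17.8. All 22 Itgb3 UMIs of macrophage-like cells in replicate 2 came from 1 barcode, and without it and 1 like barcode in replicate 1 the log2 fold change was -5.91. Itgb1 (0.34 ± 0.17), Itga8 and Itga9 did not pass.

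Of 8 genes for shedding, cleavage and crosslinking, 6 were tested, 3 were higher and 1 was lower. Mmp12, the macrophage elastase, stood at 25.5 and 6.63 CPM against 7.40 and 1.59 (log2 fold change 2.51 ± 0.57), and Tgm2, the transglutaminase that crosslinks osteopontin, at 54.1 and 32.6 against 25.8 and 16.6 (1.56 ± 0.45). Adam10, a sheddase, was lower (-0.72 ± 0.19), and Adam17 did not pass (0.09 ± 0.21). Mmp9 was called higher at 6.46 ± 1.03, but 268 of its 271 UMIs in replicate 2 lay in the same single barcode, and without the 2 barcodes its log2 fold change was 1.11 (adjusted p = 0.328).

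Of the 4 MiT/TFE transcription factors, 1 was higher in macrophage-like cells, 1 was lower and 2 did not pass. Mitf had 21.2 and 27.1 CPM against 31.6 and 32.8 in microglia-like cells (log2 fold change -0.01 ± 0.19, not passed), and Tfeb did not pass (0.47 ± 0.20). The Mitf CPM, which carry no TMM scaling, were thus lower in macrophage-like cells in both libraries. Tfe3 was lower (-0.76 ± 0.17) and Tfec higher (1.30 ± 0.37). Of the full list of 10 factors and regulators, 5 were higher, 1 was lower and 4 did not pass, with a median of 0.53.

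The higher regulators were Fnip2 (1.52 ± 0.22), a partner of folliculin, Rragc (0.81 ± 0.19) and Rragd (1.25 ± 0.41), GTPases that bring these factors to the lysosome, and Mcoln1 (0.58 ± 0.19), a lysosomal calcium channel. Flcn (-0.11 ± 0.20) and Fnip1 (0.10 ± 0.21) did not pass. With cluster 4 counted in, without the library block or with DESeq2, 3 of the 10 were higher.

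Of 25 genes for the lipid-associated and disease-associated programme, 24 were analysed, of which 16 were higher, 4 lower and 4 did not pass, with a median log2 fold change of 1.57. Largest were Atp6v0d2, a proton pump subunit of macrophages and osteoclasts (49.9 and 51.4 CPM against 1.03 and 0.0953, log2 fold change 7.01 ± 0.53), Fabp4 (6.43 ± 0.82), the scavenger receptor Cd36 (5.83 ± 0.48) and the galectin Lgals3 (4.76 ± 0.57). In replicate 2, 46.2% of the Atp6v0d2 UMIs were in the barcode named above, and the log2 fold change without the 2 barcodes was 6.64. Lower were Cst7 (-3.81 ± 0.49), Csf1 (-3.32 ± 0.37), Ctsl (-1.28 ± 0.30) and Cd9 (-0.92 ± 0.20), which are known in activated microglia. Trem2 (0.15 ± 0.21) and Lpl (0.78 ± 0.41) did not pass.

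Of 13 matrix and repair genes, 6 were higher and 1 was lower in macrophage-like cells. Thbs1, a matricellular protein like osteopontin, stood at 305 and 208 CPM against 27.2 and 7.06 (log2 fold change 4.55 ± 0.63). Pdgfb was lower (-3.11 ± 0.43), and Fn1 did not pass (0.36 ± 0.38). Of 8 immediate early and dissociation genes 6 were lower, among them Egr1 (-2.94 ± 0.41) and Hspa1b (-3.02 ± 0.33). The relatives of the pair, Pmel for Gpnmb and Ibsp, Dmp1, Dspp and Mepe for Spp1, were all below the filter on low counts.

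Variable genes used for clustering, such as Ms4a7, were left out of this comparison's calls and could not be ranked. Among the genes tested outside the lists and above 50 CPM, those with the largest differences were, on the higher side, Myof, Iqgap2, Mdfic, Vat1, Smpdl3a and Dnase1l1 (log2 fold changes from 5.93 to 3.45). On the lower side they were Lrrc3, Cxxc5, Sparc, Cd34, Slc12a2 and Tspan7 (from -5.81 to -4.77). Sparc is on the microglia marker list, and Vat1 was also among the genes most like Spp1.

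Microglia-like cells with and without an Spp1 UMI were compared next, on counts summed per library (1699 and 318 cells with, 4388 and 4460 without). This split is a range of counts, not a cell type. Spp1 itself stood at 6375 and 4429 CPM with and 160 and 48.7 without. With edgeR and library as a block, 1501 of 11513 genes (13%) were higher and 1115 (9.68%) lower in cells with Spp1. The fit has 4 sums and 1 residual degree of freedom, and without the block 0 genes were called, with 1759 at an unadjusted p under 0.05. Both groups were cut by their Spp1 counts from the same 2 libraries. The calls and their p-values therefore describe this split and are no independent test.

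In cells with an Spp1 UMI, 21 of 24 lipid-associated and disease-associated genes rose, none fell and 3 did not pass, with a median log2 fold change of 0.80 against -0.02 over all genes. Lgals3 stood at 634 and 369 CPM against 175 and 49.9 (log2 fold change 2.48 ± 0.12, edgeR adjusted p = 2.42e-24). Igf1, a growth factor, stood at 404 and 225 against 109 and 34.8 (2.39 ± 0.11). Fabp5 (2.25 ± 0.12) and Cd36 (2.21 ± 0.25) followed, and Trem2 (0.14 ± 0.11) and Itgax (0.34 ± 0.19) did not pass. Within cluster 2 alone 17 of these genes rose, and at a depth of 2000 UMIs 13. In all, 449 genes were higher and 124 lower with DESeq2. With doublets kept, 8 of the listed genes rose, and 237 genes were higher and 25 lower in all. That clustering also differed: the Cst7-led cluster lost its name to hemoglobin genes among its leading genes, and the microglia-like class fell from 6087 and 4778 to 3655 and 4327 cells, so the effect of the doublets alone was not tested.

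Macrophage markers moved with this split. The 10 macrophage markers summed to 3517 and 2365 CPM in cells with an Spp1 UMI and to 1771 and 1139 in cells without, with none of them at 0, and the defining marker Ms4a7 stood at 118 and 48.8 against 23.4 and 6.24. The 11 microglia markers summed to 11755 and 15539 with and to 14299 and 19873 without. Gpnmb stood at 207 and 75.1 CPM against 48.6 and 4.58. Cells with Spp1 were also deeper, at medians of 4703 and 9141 UMIs against 3351 and 5007, and the part of these differences in the gene calls was not tested.

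Of 9 receptor genes tested, 4 rose and 2 fell in cells with an Spp1 UMI, with a median of 0.25. Cd44 stood at 18.0 and 10.4 CPM against 9.64 and 4.43 (log2 fold change 1.12 ± 0.17), and Itga5 (0.76 ± 0.16), Sdc4 (0.51 ± 0.10) and Itgb1 (0.25 ± 0.09) rose too. Itgb3 (-0.70 ± 0.14) and Itga9 (-0.73 ± 0.18) fell. With DESeq2 1 receptor gene rose, as with doublets kept in the smaller class without the Cst7-led cluster, and at a depth of 2000 UMIs 2 rose.

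Of the MiT/TFE list, Fnip2 rose (0.40 ± 0.10), Tfe3 fell (-0.33 ± 0.09) and 8 did not pass. Of 5 tested genes for shedding and cleavage, Mmp12 alone rose, at 18.2 and 9.77 CPM against 2.04 and 0.639 (log2 fold change 3.54 ± 0.27). Of 11 matrix and repair genes 6 rose and 1 fell: Fn1, fibronectin, stood at 96.5 and 143 against 22.9 and 14.9 (2.78 ± 0.13), Adam8 rose (1.92 ± 0.12), and Pdgfb fell (-0.46 ± 0.09). Arg1 was called higher, at 7.89 and 9.77 CPM against 4.63 and 0.355, but 1 cell held 20 of the 42 Arg1 UMIs of microglia-like cells in replicate 2, and the call was not tested without it. All 8 immediate early genes fell, among them Egr1 (-0.74 ± 0.10). None fell with doublets kept, where the class lacked the Cst7-led cluster.

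Outside the lists and above 50 CPM, Cd5l, a secreted scavenger-receptor-like protein of macrophages, rose most (146.9 and 66.5 CPM against 18.8 and 3.58, log2 fold change 3.53 ± 0.13). Vim, Lgals1, Anxa2, Saa3 and Pf4 followed (2.43 to 1.79), and Vim and Lgals1 are on the macrophage marker list. Among genes that fell were the homeostatic microglial receptor P2ry12 (-0.75 ± 0.10), Slc2a5, Txnip, Col27a1 and Adgrg1. The hemoglobin gene Hbb-bs fell as well, by 0.41 on the log2 scale in replicate 1 and by 8.14 in replicate 2.

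**Figure D5:**
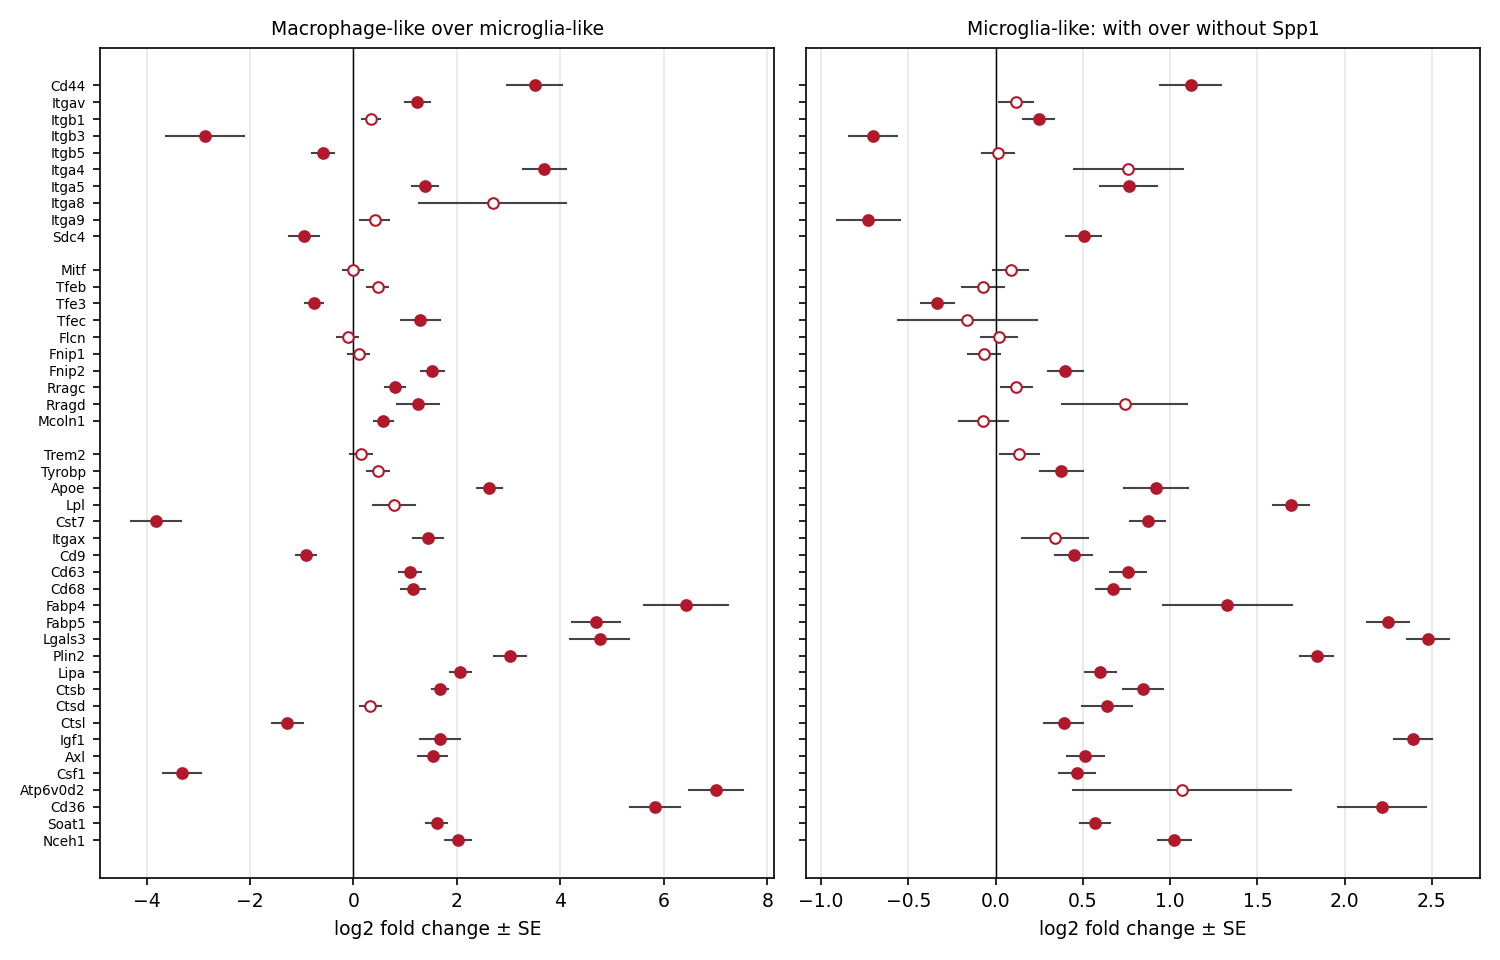
Log2 fold changes ± SE of receptor genes (top block), MiT/TFE genes (middle block) and lipid-associated and disease-associated genes (bottom block) for both comparisons, with filled points for an adjusted p under 0.05; the panels have different scales. Cd44, Fabp5, Lgals3 and Cd36 lie to the right of 0 in both panels, whereas Cst7 and Csf1 lie to the left in the first and to the right in the second.

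Macrophage-like cells with only 1 member of the pair were compared last. The groups held 231 and 21 cells with Gpnmb only and 418 and 39 cells with Spp1 only, in fits that also held cells with both and with neither. Of 6235 genes tested, 0 (0.00%) were higher and 0 (0.00%) lower by edgeR, with 188 at an unadjusted p under 0.05, and DESeq2 also called 0, with 56 at an unadjusted p under 0.05. In simulated data of this size the test recovered 57% of 2-fold and 93% of 4-fold changes. These changes were planted only in genes above a minimum mean CPM, so recovery in lower genes was not tested. Arg1 stood at 5.28 and 23.2 against 51.5 and 29.1 CPM (log2 fold change -2.52 ± 0.50, adjusted p = 0.335), and Fn1 at 12.8 and 46.5 against 58.8 and 60.7 (-1.63 ± 0.46). Neither passed. Other settings called from 0 to 14 genes in 1 direction.

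These groups are ranges of counts and overlapped in both members. Before thinning, cells with Gpnmb only still held 850 and 837 CPM of Spp1, and cells with Spp1 only held 1182 and 696 CPM of Gpnmb. Macrophage markers summed to 30053 and 27346 CPM in the former and to 31812 and 27411 in the latter.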

How the data were processed

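Both libraries of sorted cells were made with the 10x Genomics 3' v3 kit. The deposited values are raw UMI counts per gene and barcode, made with Cell Ranger 4.0.0 per the submitters' processing notes, which also name STAR 2.5.1b and Seurat 4 and, with no role stated, the mouse build GRCm38 (mm10) and the human build GRCh38. Libraries held 101893367 and 62850768 UMIs.

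Cells were clustered with scanpy 1.11.5 (Leiden resolution 0.8, 2000 variable genes, 30 components) without the pair and the listed genes, and named from marker lists. Scrublet called 1426 doublets in replicate 1 and 0 in replicate 2, where the caller did not work and the 501 highest scores were removed instead. Free RNA was read from barcodes under 100 UMIs. Counts were summed per library and group and tested with edgeR 4.0.16 (TMM, filterByExpr, quasi-likelihood test, library as a block, adjusted p under 0.05), after tests on simulated data. Variable genes used for clustering were left out of the calls of the macrophage-like against microglia-like comparison.

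Both groups of a comparison come from the same library, which is the source of the pairing, and deviations of same-numbered sums correlated at 0.26, 0.34 and 0.14. DESeq2 1.42.0 was an alternative. Named were the receptor, MiT/TFE and family genes, up to 4 called genes per direction and 2 that did not pass in each other list, 6 genes per direction outside the lists (at least 50 CPM and the same sign in both libraries), and 8 genes most like each member. The members and lists were chosen with earlier results of these data known. Promoters came from RefSeq (GRCm38.p6), and 99.6% of gene identifiers matched the GENCODE annotation.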

Additional observations from a re-analysis of the deposited data

How the results depend on the processing

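Gpnmb and Spp1 levels of macrophage-like and microglia-like cells kept within 1 SD of their mean under the settings run, but that SD is wide. Mean microglia-like Spp1 went from 1362 to 478 CPM with doublets kept, where the Cst7-led cluster was no longer in the class. Microglia-like Gpnmb was at 8.63% and 7.81% of the free level. Subtracting 10% of the free level thus left no Gpnmb in microglia-like cells of either library, a shift still within that SD. The mean level of monocyte-like cells depended on their naming: Gpnmb went from 897 CPM to 202 at Leiden resolution 1.2 and 39.2 with cluster 4 counted as macrophage-like, and Spp1 from 7470 to 2266 and 411. Mean log2 odds ratios of joint detection in macrophage-like cells were 1.63, and 1.76 (resolution 0.4), 1.46 (resolution 1.2), 1.89 (stricter cell filter), 2.75 (no thinning), 2.82 (2000 UMIs), 2.06 (at least 2 UMIs) and 2.20 (cluster 4 added). In monocyte-like cells they were 2.17, and 1.96, 1.58, 1.90, 2.99, 2.51 and 2.06 under the first 6 of these, and 2.26 with doublets kept. Of the 8 genes named as most like each member, 5 and 5 were shared at resolution 1.2.

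Microglia-like cells with against without an Spp1 UMI gave 1501 higher and 1115 lower genes, against 237 and 25 with doublets kept (and without the Cst7-led cluster), 918 and 597 at 2000 UMIs, 618 and 489 in cluster 2 alone, 449 and 124 with DESeq2, and 0 and 0 with no replicate block. Gpnmb only against Spp1 only gave 0 and 0, against 0 and 14 at resolution 1.2, 0 and 3 with the stricter filter, 6 and 4 at 2000 UMIs, 0 and 3 at 2 or more UMIs, 2 and 9 without the filter on low counts, and 0 and 2 without the 2 Mmp9-rich barcodes. The log2 fold change of Sdc4 turned to 0.040 at resolution 1.2 and 0.087 with cluster 4 added. The cause of these shifts was not tested.

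Macrophage-like against microglia-like cells kept both counts within 1.5 times; without the block, 1589 and 1519 genes were called. Alternatives were also counted for 80 results of named genes that had been called in the first 2 comparisons. Named genes that did not pass were not part of this count. Of 896 alternative values, 800 kept their direction and side of the threshold, 94 lost the call and 2 reversed. In single libraries, which give a direction and no test, 160 of 160 values kept it. Genes outside the lists were chosen for the same sign in both libraries, so their single-library values could not turn. The listed genes among them had been called from these same libraries, so this count is no independent check. The alternatives on shared barcodes, cluster 4, cluster 2, 10 UMIs and the Mmp9-rich barcodes were chosen after seeing the data. Leaving out a library leaves no residual degrees of freedom for the tests. With 2 libraries and 173 macrophage-like cells in replicate 2, precision is limited.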

Other observations

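One barcode per library in the macrophage-like cluster was rich in genes known from osteoclasts. They were singled out after their values were seen, as the barcodes with at least 100 Mmp9 UMIs. The barcode of replicate 1 held 24248 UMIs, among them 105 of Mmp9, 372 of Ctsk (cathepsin K), 240 of Acp5 (tartrate-resistant acid phosphatase), 21 of Atp6v0d2 and 6 of Ocstamp. That of replicate 2 held 35107 UMIs, with 268 of Mmp9, 912 of Ctsk, 777 of Acp5, 43 of Atp6v0d2 and 6 of Ocstamp. Gpnmb was at 0 UMIs in the first and 23 in the second, and Spp1 at 29 and 19 UMIs. Spp1 thus stood at 1196 and 541 CPM in them, below the level of their class in both libraries.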
